A study of Mus musculus with 16 samples.

Results

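The gene expression of 4T1 and 67NR mouse mammary tumor cells was compared while both lines were under the inhibitor CIX. All 8 samples labelled as CIX treated, of the 16 samples in the series, were used: 4 of 4T1 and 4 of 67NR. All 4 groups of the series were grown in DMEM with 10% FBS and treated for 24 h, either with 15 µM CIX or with the vehicle DMSO, with 4 biological replicates each. Both lines are of the BALB/c strain and come from a single spontaneous mammary tumor, and the labels give 4T1 as metastatic and 67NR as non-metastatic. Each metastatic class is thus represented by 1 cell line, and a difference between the lines cannot be told apart from a difference between metastatic classes. The corresponding comparison in the 8 vehicle treated samples, which has no sample in common with the CIX comparison, was used to see which differences between the lines persisted.

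CIX inhibits cytosolic phospholipase A2α (cPLA2α, gene Pla2g4a), the enzyme that releases arachidonic acid from membrane phospholipids. Arachidonic acid is the substrate of cyclooxygenases and lipoxygenases, whose products, the eicosanoids, are signals of inflammation and of tumor growth. Cell lines from the same tumor can differ in epithelial or mesenchymal identity. Epithelial cells hold together by E-cadherin, claudins, desmosomes and keratin filaments, and mesenchymal cells express N-cadherin, vimentin and the repressors of the ZEB, SNAIL and TWIST families.

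The expression level of a gene is given in CPM, the count of the gene relative to the TMM scaled total of its library, and the 4 values of a group are given in the order of the sample numbers (4, 8, 12 and 16 for CIX treated 4T1, and 2, 6, 10 and 14 for CIX treated 67NR). A difference is the log2 of 4T1 over 67NR with its standard error (SE), and a gene was called at a limma-voom adjusted p below 0.001. The change of a difference is the difference under CIX minus that with vehicle. Total estimated counts were between 21715737 and 29450629 in the CIX samples and between 21811675 and 24656816 in the vehicle samples. At this depth, 3 counts in a library, taken as the floor of detection, were 0.110 to 0.137 CPM. The first principal component of the CIX samples held 91.5% of the variance and separated the lines. CIX treated 4T1 sample 4 stood apart from its group: its chi-square per gene against the other 3 was between 66.4 and 100, and that among the other 3 was between 27.4 and 46.4. Vehicle treated 67NR sample 13 did so as well, with 96.4 to 112 against 18.3 to 22.2. The vehicle treated 4T1 samples were spread over 34.9 to 122, the highest value being that of samples 3 and 11. A dagger (†) marks a gene of which 5% or more of the 31-base words also occur in transcripts of other genes, so that its reads could have been assigned to another gene. Shared words were not counted for Cd68, Col3a1, Dcn, Lum and Thy1 or for genes named after their values were seen.

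The marker genes of luminal mammary epithelium were in 4T1 cells and nearly absent from 67NR cells. Of the 7 luminal markers, 6 were expressed in 4T1 alone at 1 TPM and had to differ in level. Their summed level was 2710 to 2980 CPM in the CIX treated 4T1 samples and 1.07 to 3.46 CPM in the CIX treated 67NR samples. Markers of basal epithelium summed to at most 5.45 CPM in either line, and 5 of the 7 were at or below 3 counts in 67NR. The 8 fibroblast markers summed to 237 to 300 CPM in 67NR and to 49.6 to 57.7 CPM in 4T1. Pdgfra† made up most of both sums (means of 223 and 51.9 CPM), Col3a1, Dcn, Lum and Thy1 had means below 1 CPM in both lines, and their part in the results was not tested. Among the 9 leukocyte markers Cd68 made up nearly all of the sum of 134 to 200 CPM in 4T1 and of 36 to 41.8 CPM in 67NR, while 5 markers in 4T1 and 6 in 67NR were at or below 3 counts. By these levels the label of a mammary carcinoma line was matched by epithelial markers in 4T1 and not in 67NR.

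Under CIX the lines differed in a large share of the genes. Of 12783 genes tested, 5257 (41.1%) were called, 2816 of them (22.0% of the genes tested) higher and 2441 (19.1%) lower in 4T1 as compared to 67NR. Their median absolute difference was 1.53 on the log2 scale, and 1037 genes differed by 5 or more. The samples of the lines did not overlap in 7861 genes (61.5%), which includes each of the called ones. Of the genes tested, 753 reached 1 TPM, a transcript level relative to length and to all transcripts, in all 4 CIX treated 4T1 samples and in no CIX treated 67NR sample, and 623 did so in 67NR alone. TPM was computed here from the deposited counts taken as not yet scaled by length, which the sources used here do not state. Such genes passed the filter through the line in which they were high and had to differ in level. They did not have to be called, and 721 of the 753 and 582 of the 623 were. Among the 10224 genes at 1 TPM or more in all 8 CIX samples, 3567 (34.9%) were called. In these bulk samples a lower level in each cell and fewer cells with the gene cannot be told apart.

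With vehicle, 5903 genes (46.2%) were called between the lines, 3132 (24.5%) higher and 2771 (21.7%) lower in 4T1. Of these, 3922 were called in the same direction under CIX (30.7% of the genes tested, 66.4% of the vehicle calls and 74.6% of the CIX calls), 2159 higher and 1763 lower in 4T1. Another 1954 genes were called with vehicle only, and 1667 of them (85.3%) still had the same sign under CIX. The change of the difference was itself called in 476 (24.4%) of these, so that a lost call was no evidence of a changed difference for the others. Of the 1308 genes called under CIX only, 207 (15.8%) had a called change. Over all genes the change was called in 1024 (8.01%), being positive in 620 (4.85%) and negative in 404 (3.16%). Of these calls, 60.5% were positive with TMM scaling and 53% with library size alone. In limma on log2(TPM + 1), which changes the unit, the offset and the weighting together, 45.3% were positive. In 6393 genes (50%), and in 1768 (45.1%) of those called in the same direction under both treatments, the 95% confidence interval of the change lay within 1 on the log2 scale. Without both samples that stood apart, 5589 genes were called under CIX, 5452 with vehicle, 3907 in the same direction under both, and 1034 had a called change.

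**Figure D1:**
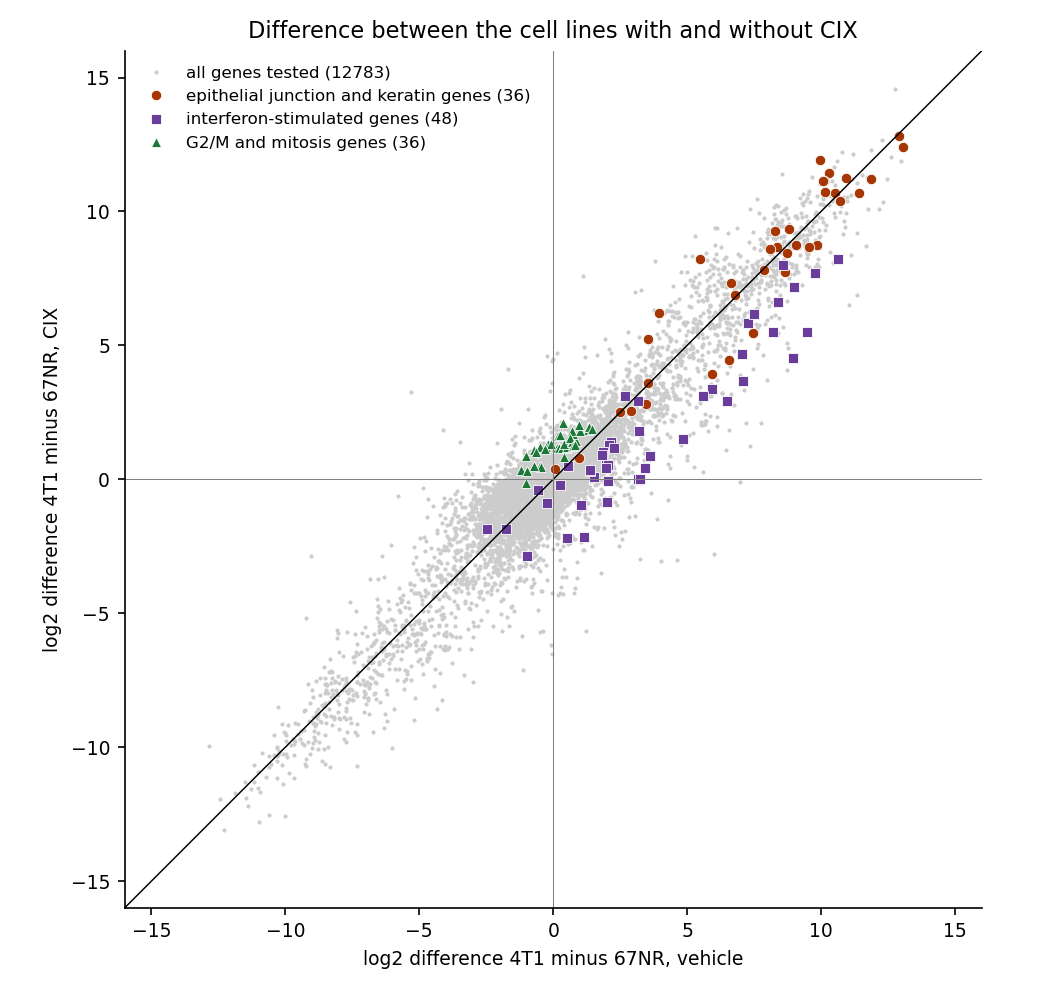
Difference between the lines (log2 of 4T1 over 67NR) with vehicle on the x axis and under CIX on the y axis for the 12783 genes tested, each a point, with the 36 epithelial genes, the 48 interferon-stimulated genes and the 36 G2/M genes coloured and the diagonal drawn. The epithelial genes lie along the diagonal at high values, most interferon-stimulated genes lie below it, and the G2/M genes lie above it.

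The larger a difference was with vehicle, the more often it was called again under CIX. Among the 1571 vehicle calls with an absolute difference below 1, 43.2% were called again in the CIX samples. This share was 61.5% of the 2008 genes between 1 and 2, 73.9% of the 712 genes between 2 and 3, and 85.5% of the 588 genes between 3 and 5. Of the 1024 genes that differed by 5 or more with vehicle, 980 (95.7%) were called again, and the change of the difference was called in 19 of them (1.86%). In the bin between 2 and 3 it was called in 23%. Of the 1024 genes, 851 (83.1%) were expressed in 1 line alone at 1 TPM under CIX. Between 1 and 2 this share was 1.89%. Such genes had to differ in level under CIX, so that their being called again says little about persistence. The median SE of the change was 0.75 for the 1024 genes and 0.2 between 1 and 2, so that changes were less often detectable in the former.

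**Figure D2:**
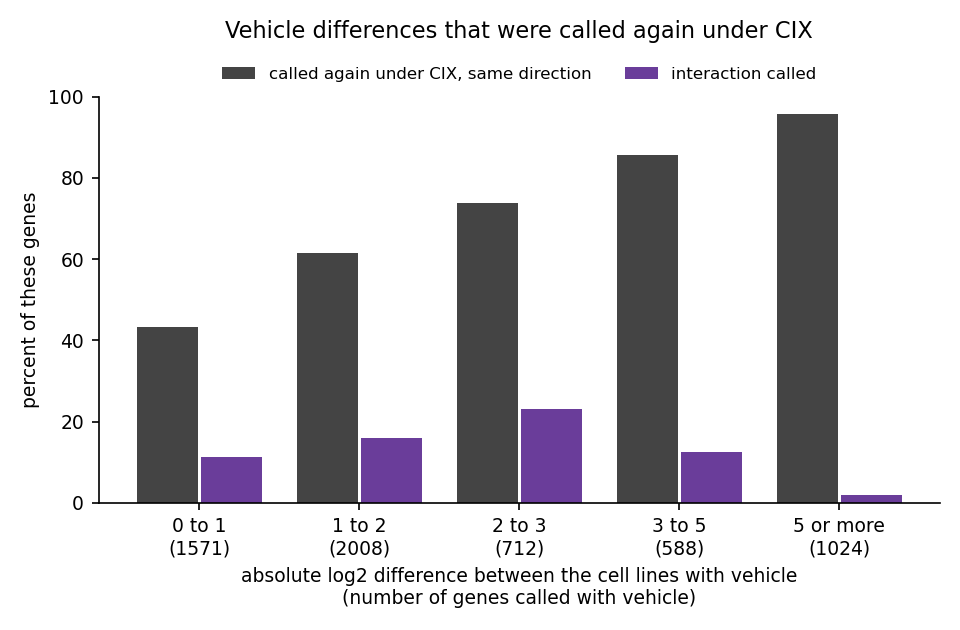
Vehicle calls by the absolute size of their difference (log2, x axis), with the percent called again in the same direction under CIX and the percent with a called change of the difference (y axis, bars). The share called again rises from 43.2% in the smallest bin to 95.7% in the largest, and the share with a called change is at most 23%. In the largest bin 83.1% of the genes were expressed in 1 line alone under CIX.

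Epithelial junction and keratin genes, which hold epithelial cells together, separated the lines under CIX about as they did with vehicle. Of the 36 tested genes of this list, 35 were called higher in 4T1 under CIX and the same number with vehicle, none was called lower, and the change of the difference was called in 1. Over all genes, 22.0% were called higher under CIX and 24.5% with vehicle, and the change was called in 8.01%. The median difference was 8.62 under CIX and 8.51 with vehicle, against medians of 0.01 and 0.02 over all genes tested. With the 6 genes near 0 in 67NR set to their bound, the median under CIX was 8.43. Of the 36 genes, 25 were expressed in 4T1 alone at 1 TPM and had to differ. The interval of the change lay within 1 for 6 of the 36 genes.

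Cdh1 (ENSMUSG00000000303, chromosome 8 from 106603351 to 106670246, GRCm38) encodes E-cadherin, which joins epithelial cells at adherens junctions. Its level was 483, 513, 528 and 469.7 CPM in CIX treated 4T1 and 0.502, 0.206, 0.0916 and 0.513 CPM in CIX treated 67NR. All 4T1 samples were high and all 67NR samples near the floor, with a difference of 10.70 ± 0.39 (SE, n = 4 per line, limma-voom adjusted p = 4.31e-08). With vehicle, the 4T1 samples had 477, 629, 670.0 and 599 CPM, and the change of the difference was 0.19 ± 0.64 (95% interval -1.17 to 1.54).

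Epcam, the epithelial cell adhesion molecule, had 185, 176, 187 and 204 CPM in CIX treated 4T1 and 0.0772, 0.0413, 0 and 0.256 CPM in CIX treated 67NR. With vehicle the 4T1 level was higher, at 317, 307, 313 and 311 CPM, and the lines differed by 11.19 under CIX and by 11.88 with vehicle. The paired filament proteins of simple epithelia, keratin 8 and keratin 18, showed the same separation. Krt18† stood at 1180, 1186, 1247 and 1239 CPM in 4T1 and at 0.193, 0, 0.183 and 0.855 CPM in 67NR, a difference of 12.81 ± 0.68. Krt8† stood at 929, 662, 689 and 743 CPM and at 0.965, 0.825, 1.42 and 1.67 CPM, a difference of 9.28 ± 0.35. Krt7, a further simple keratin, differed by 11.43 ± 0.34.

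The tight junction claudin Cldn4 had 463, 569, 762 and 478 CPM in CIX treated 4T1 and at most 0.555 CPM in 67NR. Cldn3 had no read in any CIX treated 67NR sample and was at least 352-fold higher in 4T1, against the floor of 3 counts per library. Perp, a desmosome component, was at least 796-fold higher in 4T1 by the same measure. The basal keratin Krt14† was low also in 4T1, with 4.56, 1.30, 1.47 and 2.11 CPM, and was at least 17.2-fold higher than in 67NR. Tjp1, the scaffold protein ZO-1, was the member that was not called, with 181, 164, 212 and 179 CPM in 4T1, 120.4, 133, 165 and 138 CPM in 67NR and a difference of 0.39 ± 0.11 (limma-voom adjusted p = 0.0114). The called change was that of Itgb4†, the integrin β4 of hemidesmosomes: its level was 179, 219, 165 and 190.2 CPM in 4T1 and 3.78, 5.08, 6.82 and 4.36 CPM in 67NR under CIX. Its difference was 5.24 under CIX and 3.53 with vehicle (change 1.71 ± 0.26, limma-voom adjusted p = 1.92e-04).

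ZEB and SNAIL repressors bind the E-box CAGGTG, which reads CACCTG on the other strand. This E-box was in the promoter of 17 of the 21 epithelial junction and keratin genes with a RefSeq entry (81.0%), against 20.8% of the 9419 tested genes with an entry and 22.6% of all 27025 promoters of the table, in windows of 300 bases on both strands. It was in 2 of 15 mesenchymal genes and in 1 of 8 EMT transcription factors. The 250 bases before the start of Epcam (chr17:87635729-87635978, plus strand) and of Krt8 (chr15:102004343-102004592, minus strand) are shown because both genes separated the lines under either treatment, with the E-boxes in capitals (RefSeq, GRCm38.p6, read along the gene's strand).
Epcam: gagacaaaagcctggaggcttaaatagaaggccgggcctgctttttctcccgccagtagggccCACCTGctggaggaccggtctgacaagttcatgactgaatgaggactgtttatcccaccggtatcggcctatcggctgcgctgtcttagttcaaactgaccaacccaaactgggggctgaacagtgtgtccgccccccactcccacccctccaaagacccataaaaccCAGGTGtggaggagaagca
Krt8: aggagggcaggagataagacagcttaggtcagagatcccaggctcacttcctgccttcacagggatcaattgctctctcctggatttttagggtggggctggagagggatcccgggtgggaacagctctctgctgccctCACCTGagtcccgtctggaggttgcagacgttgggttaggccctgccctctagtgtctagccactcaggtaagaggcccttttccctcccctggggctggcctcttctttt
The Epcam window held 2 matches, starting 187 and 19 bases before the start, and that of Krt8 held 1, starting 111 bases before it. These matches describe the letters of the promoters and not the binding of a factor.

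Of 15 tested epithelial transcription and splicing regulators, 12 were called higher and 1 lower in 4T1 under CIX, as compared to 13 and 1 with vehicle. Over all genes, 22.0% were called higher and 19.1% lower under CIX, and 24.5% and 21.7% with vehicle. Of the 15 genes, 8 were expressed in 4T1 alone at 1 TPM and had to be higher there. The splicing factors Esrp1 and Esrp2†, which set epithelial splice forms, were at least 355-fold and at least 358-fold higher in 4T1. Ovol2†, a repressor of mesenchymal genes, had 2.12, 1.90, 2.31 and 2.39 CPM in 4T1 and no read in 67NR. Grhl2, a grainyhead factor of epithelial junctions, was read in both lines, with 39.2, 37.8, 43.0 and 37.0 CPM in 4T1 and 11.0, 6.31, 9.52 and 10.8 CPM in 67NR. Elf3†, an ETS factor of epithelia, differed by 8.23 ± 0.45. The exception was Klf4, a factor of differentiating epithelia, which was lower in 4T1 with a difference of -3.37 ± 0.15.

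Sox9, a factor of mammary progenitors, was the regulator with a called change. Its level was 113, 134, 104 and 112 CPM in CIX treated 4T1 and 104, 116, 101 and 129 CPM in CIX treated 67NR, so that the lines overlapped, and its difference was 0.02 ± 0.11 under CIX and 1.08 with vehicle. With vehicle, 67NR had 65.4, 68.8, 57.1 and 59.8 CPM, which was below all CIX treated 67NR samples (change -1.06 ± 0.15, limma-voom adjusted p = 1.02e-04). Gata3, the luminal fate factor, was not called under either treatment, with a difference of 0.83 ± 0.17 under CIX.

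Among the transcription factors of epithelial to mesenchymal transition (EMT), 6 of 12 were called lower and 2 higher in 4T1, with the same counts with vehicle. The share called under CIX was 66.7%, beside 41.1% over all genes, but 4 of the 12 were expressed in 67NR alone and 1 in 4T1 alone at 1 TPM and had to differ. Prrx1, a homeobox factor of mesenchyme, had 0.0407, 0.735, 0.293 and 0.203 CPM in CIX treated 4T1 and 241, 231, 258 and 244 CPM in CIX treated 67NR. Zeb1, a repressor of Cdh1, had 0.325, 0, 0.549 and 0 CPM in 4T1 and 64.8, 64.9, 67.3 and 72.9 CPM in 67NR. The lines did not overlap in either gene, and the differences were -10.03 ± 0.49 and -9.43 ± 0.79. Snai2, a zinc finger repressor of the SNAIL family, differed by -7.57 ± 0.58. Twist2†, a basic helix-loop-helix factor, differed by -6.54 ± 0.37, and Hmga2†, a chromatin protein, by -1.40 ± 0.07.

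Twist1, the relative of Twist2, kept its direction while its difference narrowed, from -2.85 with vehicle to -1.80 under CIX. Its 4T1 level was 17.1, 16.2, 15.2 and 17.1 CPM under CIX and 8.12, 8.32, 8.30 and 8.66 CPM with vehicle, so that the CIX treated samples lay above all vehicle treated ones. Snai1 had a difference of 0.58 ± 0.15 (limma-voom adjusted p = 0.00670) and was not called. Zeb2 was not called either: its CIX levels were spread over 35.5, 28.7, 154 and 46.6 CPM in 4T1 and 369.7, 334, 202 and 59.3 CPM in 67NR, and the lines overlapped. The factors higher in 4T1 were Foxc2, at least 83.7-fold, and Sox4†, whose difference was 0.60 under CIX and 1.84 with vehicle (change -1.24 ± 0.12). The CIX call of Sox4 was lost without 4T1 sample 8 or 12 or 67NR sample 6.

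**Figure D3:**
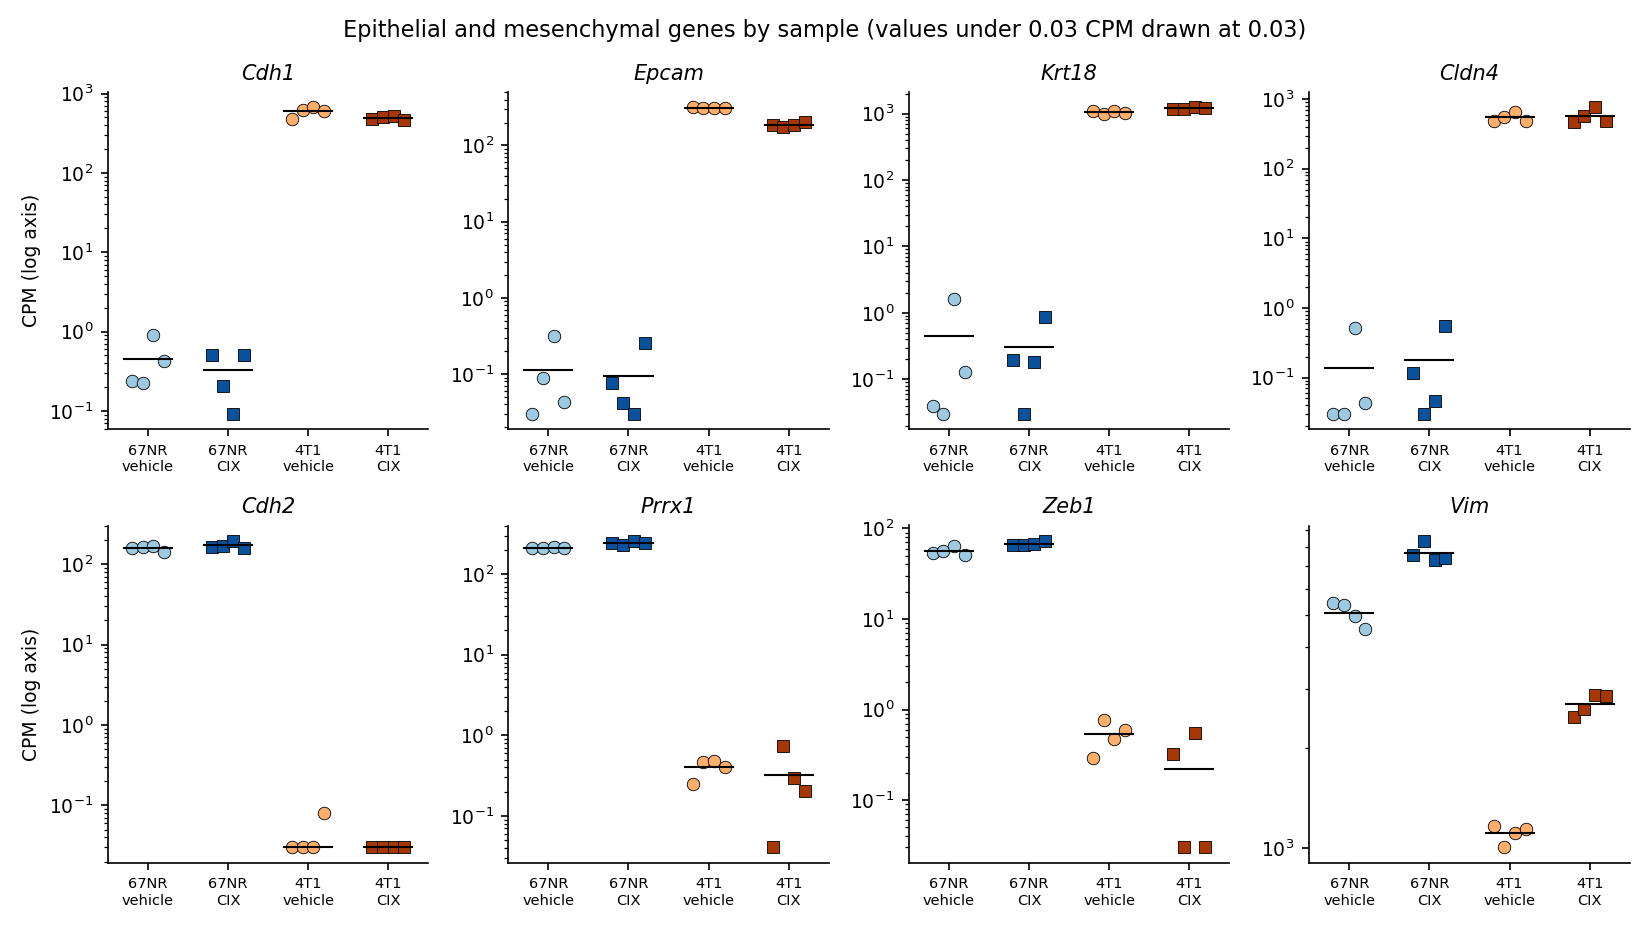
Levels of 4 epithelial genes (Cdh1, Epcam, Krt18, Cldn4) and 4 mesenchymal genes (Cdh2, Prrx1, Zeb1, Vim) in CPM on a log axis, each point a sample and each bar the mean of its 4 samples, for the 4 groups; values below 0.03 CPM are drawn at 0.03. The lines do not overlap in any of these genes under either treatment.

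Of 24 tested mesenchymal and matrix genes, 12 were called lower and 4 higher in 4T1 under CIX (66.7% called, beside 41.1% over all genes), as compared to 13 and 1 with vehicle. Of the 24 genes, 8 were expressed in 67NR alone and 1 in 4T1 alone at 1 TPM and had to differ. Cdh2, which encodes N-cadherin, had no read in any CIX treated 4T1 sample and 165, 170.2, 196 and 158 CPM in 67NR, at least 1320-fold lower in 4T1. The PDGF receptor Pdgfrb and the fibrillar collagen Col5a2 were lower in 4T1 by at least 238-fold and at least 139-fold. Vim, which encodes the filament protein vimentin, was read in both lines, with 2463, 2615, 2875 and 2851 CPM in 4T1 and 7575, 8347, 7315 and 7397 CPM in 67NR under CIX. Its difference narrowed from -2.20 with vehicle to -1.53 under CIX, with vehicle treated 4T1 at 1164, 1003, 1109 and 1143 CPM. Sparc, a matrix glycoprotein, narrowed from -3.83 to -2.45 (change 1.38 ± 0.12, limma-voom adjusted p = 4.15e-06). Changes were called positive in 3 and negative in 1 of the 24 genes, beside 4.85% and 3.16% over all genes. The negative one was that of Pdgfra, whose difference widened from -1.34 with vehicle to -2.11 under CIX (change -0.78 ± 0.14, limma-voom adjusted p = 8.065e-04).

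The 4 members higher in 4T1 included Nt5e, the ectonucleotidase CD73, with a difference of 9.31 ± 0.52, and the secreted matrix protein Fbln2, with 1.96 ± 0.25. Thbs1, thrombospondin 1, was called under CIX alone, with a difference of 1.79 ± 0.15 and one of 0.68 with vehicle. The change of 1.10 ± 0.22 did not pass the threshold (limma-voom adjusted p = 0.00152). Fn1, fibronectin, was not called, with 1872, 2261, 2288 and 2395 CPM in 4T1 and 1332, 1362, 1916 and 2194 CPM in 67NR.

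The 10 largest differences under CIX, among called protein-coding genes without overlap, were those of Sorl1, Krt18, Wfdc2, Cldn4, Hdac11†, Ptprf, Tmsb4x, Cd24a, Perp and Plau. The fitted values ran from 11.90 to 14.56 (Sorl1), and for genes near 0 in 67NR such values depend on the offset of the model. Sorl1, a sorting receptor, had 515, 1676, 1625 and 2312 CPM in 4T1 and at most 2 counts in 67NR, at least 11200-fold higher. Its level in sample 4 was below those of the other 3 samples, and its call was lost without 4T1 sample 12 or any 67NR sample. Hdac11, a histone deacetylase, had no read in 67NR and was at least 801-fold higher in 4T1. Tmsb4x, which encodes the actin-binding thymosin β4, was at least 1170-fold higher. Wfdc2, a secreted protease inhibitor of epithelia, had 702, 568, 572 and 544 CPM in 4T1 and at most 0.299 CPM in 67NR. Ptprf, a receptor phosphatase, and Cd24a, a surface marker of mammary epithelium, differed by 12.21 ± 0.74 and 12.05 ± 0.66.

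The 10 genes furthest on the 67NR side were Cdh2, Stac2, Pnma5†, Pdpn, Pcdh7†, Gas1†, Ddit4l, Scamp5, Chst1 and Epb41l3. Pdpn, podoplanin, a membrane mucin of mesenchymal and lymphatic cells, had 549, 474, 503 and 513 CPM in 67NR and 0.163, 0.173, 0 and 0.0811 CPM in 4T1. Stac2, an adaptor protein, had no read in 4T1 and was at least 1100-fold lower. Pcdh7, a protocadherin, and Gas1, a growth arrest protein of the membrane, were at least 1070-fold and at least 788-fold lower. For Chst1, a sulfotransferase, and Epb41l3, a membrane skeleton protein, the bounds were 1140-fold and 1200-fold. Pnma5, Ddit4l and Scamp5 were lower by at least 1860-fold, 993-fold and 674-fold.

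Among called genes that differed by 3 or more, those with the most reads in 4T1 were Sorl1, Krt7, Krt18, Lama5, C3, Krt8, Als2cl† and Cxcl5. Lama5, the laminin α5 of basement membranes, had 964, 1380, 1214 and 1119 CPM in 4T1 and 96.2, 87.7, 63.8 and 106 CPM in 67NR under CIX. Its change was 0.04 ± 0.26 (95% interval -0.51 to 0.58), within 1. C3, the central complement component, had 1379, 1082, 541 and 921 CPM in 4T1 and 4.48, 0.454, 0.504 and 0.513 CPM in 67NR. Those with the most reads in 67NR were Tnfrsf22†, Aebp1, Pdpn, Sema7a, Aqp1, Kitl, Il1rl1 and Mrc2. Aebp1, a secreted collagen-binding protein, had 749.8, 803, 783 and 879 CPM in 67NR and 1.5, 1.17, 0.366 and 0.284 CPM in 4T1. Tnfrsf22, a decoy receptor of the TNF family, had 1045, 1052, 1092 and 1214 CPM in 67NR and 127, 133, 145 and 118 CPM in 4T1. Its difference widened from -2.19 to -3.09 (change -0.91 ± 0.12). Aqp1, a water channel, Sema7a, a semaphorin, and Kitl, the ligand of the receptor Kit, differed by -5.21, -4.82 and -4.91. Mrc2, an endocytic collagen receptor, differed by -11.38 ± 0.80, and Il1rl1, the receptor of interleukin 33, by -10.03 ± 0.52 under CIX and -6.01 with vehicle. The change of Il1rl1 was called, but not in 8 of the 16 cases in which a single sample was left out.

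Several genes were silent in 1 line, that is at or below 3 counts in all 4 of its CIX samples, while the other line had at least 1 CPM in all 4. There were 317 such genes expressed in 4T1, of which 231 were also silent in 67NR with vehicle, and 253 expressed in 67NR, of which 192 were also silent in 4T1 with vehicle. Of the 253 genes, 37 are on the X chromosome, where 424 of the 12783 tested genes are, as compared to 12 of the 317. Of the 37 genes, 19 share 25% or more of their words with other genes, as compared to 1 of the 12, and reads of such genes could have been assigned to another gene.

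Genes induced by interferon, which act against viruses, differed less between the lines under CIX than with vehicle. Of 48 tested interferon-stimulated genes, 39 were called higher and 2 lower in 4T1 with vehicle, and 21 were called higher and 4 lower under CIX (52.1% called, beside 41.1% over all genes). Of the 48 genes, 10 were expressed in 4T1 alone and 2 in 67NR alone at 1 TPM under CIX and had to differ there. The median difference was 2.48 with vehicle and 0.90 under CIX. The change was called in 16 of the 48 genes and was negative in each, beside 3.16% negative calls over all genes. It was called in 14 to 18 genes when a sample was left out and in 22 with edgeR. On log2(TPM + 1) and log2(TPM + 0.1) it was called in 32 and 24, each negative.

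Isg15†, a ubiquitin-like protein induced by interferon (ENSMUSG00000035692, chromosome 4 from 156199424 to 156200818, GRCm38), had 69.4, 41.3, 37.1 and 73.5 CPM in vehicle treated 4T1 and 5.75, 6.88, 5.55 and 5.52 CPM in vehicle treated 67NR. Under CIX it had 5.74, 2.94, 4.29 and 4.30 CPM in 4T1 and 3.82, 4.29, 4.67 and 4.44 CPM in 67NR. The lines were apart with vehicle and overlapped under CIX, with differences of 3.17 and -0.04 ± 0.22 (change -3.22 ± 0.46, limma-voom adjusted p = 1.22e-04). Igtp†, an immunity-related GTPase, was likewise apart with vehicle and overlapped under CIX. It had 31.4, 27.7, 26.2 and 42.6 CPM in vehicle treated 4T1, 3.13, 1.86, 2.71 and 2.76 CPM in CIX treated 4T1 and 3.05, 2.39, 2.47 and 2.14 CPM in CIX treated 67NR. Its change was -3.16 ± 0.36, and those of the related GTPases Irgm2† and Irgm1 were -3.25 ± 0.40 and -2.12 ± 0.20. Gbp2, a guanylate-binding protein, differed by 2.00 with vehicle and by -0.84 ± 0.22 under CIX (change -2.84).

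Xaf1, a pro-apoptotic gene induced by interferon, turned from higher to lower in 4T1. It had 48.8, 36.2, 36.6 and 54.8 CPM in vehicle treated 4T1 and 22.8, 18.6, 15.4 and 22.6 CPM in vehicle treated 67NR. Under CIX it had 3.66, 3.89, 3.66 and 4.91 CPM in 4T1 and 21.5, 13.9, 15.3 and 20.3 CPM in 67NR, with no overlap under either treatment. The differences were 1.15 and -2.15 (change -3.31 ± 0.31, limma-voom adjusted p = 5.31e-06). Trim25, the ubiquitin ligase that activates RIG-I, narrowed from 2.05 to 0.54, Bst2, which tethers viruses at the membrane, from 2.26 to 1.17, and the antiviral membrane protein Ifitm3† from 2.07 to 1.26. The CIX call of Trim25 was lost in 7 of the 8 cases in which a single sample was left out, with limma-voom adjusted p up to 0.00313.

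Not all interferon-stimulated genes lost their difference. Ifih1, the RNA sensor MDA5, had 22.6, 16.2, 24.8 and 23.5 CPM in CIX treated 4T1 and at most 2 counts in 67NR, at least 159-fold higher. Its mean 4T1 level was lower under CIX (21.8 CPM) than with vehicle (107.7 CPM), where 67NR had at most 3 counts. Oasl2, a relative of the oligoadenylate synthetases, was at least 52.3-fold higher in 4T1, with 6.14, 7.78, 6.92 and 7.82 CPM under CIX and 72.5, 62.3, 52.1 and 112 CPM with vehicle. Oas1a†, an oligoadenylate synthetase, differed by 4.54 under CIX and by 8.95 with vehicle, and its change of -4.41 ± 0.91 missed the threshold (limma-voom adjusted p = 0.00192). Parp9† and Parp14, ADP-ribosyltransferases, differed by 6.61 and 4.69 under CIX. Ifit2, which binds viral RNA, was lower in 4T1 under both treatments, with differences of -1.86 and -1.75, and the interval of its change (-0.45 to 0.22) lay within 1. The other members called lower in 4T1 under CIX were Xaf1, Mx1† (-2.87 ± 0.28), a GTPase against viruses, and Ifit3b† (-2.21 ± 0.28).

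The interferon-stimulated response element GAAANNGAAA (TTTCNNTTTC on the other strand) was in the promoter of 22 of the 39 interferon-stimulated genes with an entry (56.4%), against 3.63% of the tested genes and 3.99% of all promoters. The 250 bases before the start of Isg15 (chr4:156200819-156201068, minus strand) and of Igtp (chr11:58199306-58199555, plus strand) are shown as those of genes whose line difference was called with vehicle and not under CIX, with the element in capitals.
Isg15: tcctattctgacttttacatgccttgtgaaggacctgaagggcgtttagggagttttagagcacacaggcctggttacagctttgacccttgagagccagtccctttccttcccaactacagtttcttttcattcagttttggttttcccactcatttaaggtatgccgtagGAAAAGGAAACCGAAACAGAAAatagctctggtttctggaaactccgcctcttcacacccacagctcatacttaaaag
Igtp: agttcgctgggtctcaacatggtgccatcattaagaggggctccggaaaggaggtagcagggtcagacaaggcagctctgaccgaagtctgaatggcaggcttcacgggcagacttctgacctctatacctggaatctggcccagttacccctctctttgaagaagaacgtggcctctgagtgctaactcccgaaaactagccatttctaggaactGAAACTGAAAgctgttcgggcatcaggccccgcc
The 3 matches of Isg15 overlap and start 78, 72 and 66 bases before the start, and the match of Igtp starts 34 bases before it. These too are letters and not binding, and members with and without a called change were not compared.

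Of 22 tested genes of MHC class I antigen presentation, which display peptides to T cells, 14 were called higher and 2 lower in 4T1 with vehicle, and 6 higher and 2 lower under CIX. The share called under CIX, 36.4%, was below the 41.1% over all genes. A change was called for 6 genes, all negative, beside 3.16% negative calls over all genes. H2-K1†, a classical class I heavy chain, had 308, 403, 386 and 337 CPM in CIX treated 4T1 and 396, 395, 372 and 403 CPM in CIX treated 67NR, and the lines overlapped. Its difference was -0.16 ± 0.09 under CIX and 0.80 with vehicle (change -0.96 ± 0.15). Tapbpl†, a peptide editor, went from 1.09 to -0.17, and the proteasome subunit Psmb10 from 2.43 to 0.86. The changes of the nonclassical chains H2-Q4† and H2-Q6†, -1.51 and -1.12, are uncertain, because 53.0% and 51.8% of their words are shared. Members that stayed higher in 4T1 included Tap1, a subunit of the peptide transporter (1.64 ± 0.18), the immunoproteasome subunit Psmb8† (7.93 ± 0.54) and H2-T23† (3.69 ± 0.19). B2m, the light chain, and H2-M3 were called lower in 4T1 under CIX, with differences of -0.59 and -1.15.

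Toll-like receptors and their adaptors, which sense microbial products, were called higher in 8 and lower in 2 of 20 genes under CIX (50% called, near the 41.1% over all genes), as compared to 9 and 3 with vehicle. Tlr2, the receptor of lipopeptides, changed by less than 1, with 28.6, 27.7, 22.5 and 30.1 CPM in 4T1 and 2.01, 1.32, 1.92 and 1.07 CPM in 67NR under CIX and a change of -0.10 ± 0.34 (95% interval -0.82 to 0.61). Tlr3†, the receptor of double-stranded RNA, had 56.0, 58.3, 55.4 and 67.9 CPM in vehicle treated 4T1 and 15.3, 14.8, 11.3 and 13.5 CPM in CIX treated 4T1. Its difference narrowed from 3.96 to 1.38 (change -2.59 ± 0.28, limma-voom adjusted p = 1.33e-05). Irf3, the factor activated behind Tlr3, changed in the opposite direction, from -1.89 to -0.63, a call of change that was lost in 7 of the 16 cases in which a single sample was left out. Irak3, an inhibitor of the pathway, was lower in 4T1 (-5.77 ± 0.31), and Tlr4, the receptor of lipopolysaccharide, was not called (-0.26 ± 0.17). Cd14, its coreceptor, had 26.7, 12.0, 10.1 and 12.0 CPM in 4T1 and 46.0, 43.2, 42.6 and 42.2 CPM in 67NR, and its call was lost without 4T1 sample 16.

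Genes of mitosis differed more between the lines under CIX than with vehicle, and were higher in 4T1. Of 36 tested G2/M and mitosis genes, 30 were called higher and none lower in 4T1 under CIX, beside 22.0% higher calls over all genes. With vehicle 11 were called higher and 7 lower. Changes were called in 17 genes and were positive in each, beside 4.85% over all genes. The median difference was 1.24 under CIX and 0.30 with vehicle. When a sample was left out, 29 to 31 genes were called higher under CIX and the change was called in 13 to 23, most without 4T1 sample 4. The vehicle counts were less stable, with 7 higher without 4T1 sample 3 or 15 or 67NR sample 1 or 9, and 4 lower without 4T1 sample 7 or 67NR sample 5.

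Ccna2†, cyclin A2 (ENSMUSG00000027715, chromosome 3 from 36564865 to 36572150, GRCm38), had 214, 276, 313 and 312 CPM in CIX treated 4T1 and 153, 129, 121 and 106 CPM in CIX treated 67NR. With vehicle it had 134, 116, 117 and 130.3 CPM in 4T1 and 218, 214, 207 and 182 CPM in 67NR. The samples of the lines did not overlap under either treatment, and 4T1 was the higher line under CIX and the lower line with vehicle. The differences were 1.11 ± 0.15 and -0.72 (change 1.83 ± 0.18, limma-voom adjusted p = 5.73e-06). Birc5†, survivin, turned in the same way, with 133, 125, 143 and 128 CPM in 4T1 and 85.8, 72.4, 67.6 and 61.3 CPM in 67NR under CIX and differences of 0.87 and, with vehicle, -1.03. Kif2c†, a kinesin of centromeres, did so as well, with differences of 1.01 and -0.64.

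Bub1b, the checkpoint kinase BubR1, had 202, 251, 323 and 255 CPM in CIX treated 4T1 and 67.2, 57.9, 57.8 and 51.2 CPM in CIX treated 67NR, and its difference of 2.10 ± 0.15 was the largest of the list under CIX. Plk1†, a kinase of mitotic entry, differed by 1.21 under CIX and by -0.51 with vehicle, and Ube2c†, the ubiquitin-conjugating enzyme of the anaphase-promoting complex, by 1.31 and -0.07. Genes already higher in 4T1 with vehicle included Top2a, topoisomerase IIα, with differences of 1.82 under CIX and 1.02 with vehicle, Ccnb1†, cyclin B1, with 1.44 and 0.85, and Nusap1, a spindle protein, with 2.01 and 0.98. Their changes were not called. Mki67, which encodes the proliferation marker Ki-67, had 277, 537, 500.3 and 636 CPM in 4T1 and 272, 294, 391 and 370.0 CPM in 67NR under CIX, and the lines overlapped (difference 0.49 ± 0.24, limma-voom adjusted p = 0.0948). The kinase Cdk1 was not called either, with 0.49 ± 0.12, but its change was (0.98 ± 0.15). The checkpoint protein Mad2l1 was not called, with -0.14 ± 0.29.

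The cell cycle genes homology region TTTGAA, which reads TTCAAA on the other strand and is a binding site of the complexes that repress G2/M genes in G1, was in the promoter of 20 of the 30 G2/M genes with an entry (66.7%) and of 3 of 17 G1 genes (17.6%), against 14.2% of the tested genes and 20.2% of all promoters. The 250 bases before the start of Ube2c (chr2:164769679-164769928, plus strand) and of Top2a (chr11:99024190-99024439, minus strand) are shown as those of a gene whose change was called and of a gene higher in 4T1 under both treatments.
Ube2c: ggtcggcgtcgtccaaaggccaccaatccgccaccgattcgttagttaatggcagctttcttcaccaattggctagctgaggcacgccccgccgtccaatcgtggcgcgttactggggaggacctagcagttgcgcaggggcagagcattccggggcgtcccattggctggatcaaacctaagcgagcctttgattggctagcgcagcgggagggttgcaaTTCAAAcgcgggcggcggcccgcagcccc
Top2a: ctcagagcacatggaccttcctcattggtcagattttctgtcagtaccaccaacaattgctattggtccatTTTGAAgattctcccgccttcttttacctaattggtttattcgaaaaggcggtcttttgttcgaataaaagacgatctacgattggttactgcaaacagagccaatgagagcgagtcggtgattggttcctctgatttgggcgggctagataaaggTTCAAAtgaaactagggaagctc
The match of Ube2c, in capitals, starts 29 bases before the start, and those of Top2a start 179 and 23 bases before it. Binding was not measured, and G2/M genes with and without a called change were not compared for the element.

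Of 22 cyclins, kinases and inhibitors of G1, 6 were called lower and 2 higher in 4T1 under CIX, as compared to 7 and 1 with vehicle. The share called, 36.4%, was below the 41.1% over all genes. Cdkn2a, the locus of the inhibitors p16 and p19Arf, had 29.7, 27.7, 23.7 and 26.9 CPM in 67NR and at most 1 count in a 4T1 sample, at least 208-fold lower. Trp53†, which encodes p53, had 36.9, 32.9, 34.3 and 35.1 CPM in 4T1 and 193, 173, 195 and 188 CPM in 67NR, a difference of -2.45 ± 0.08 and of -2.65 with vehicle. The interval of its change, -0.08 to 0.48, lay within 1. Cdkn1a†, the inhibitor p21 and a target of p53, had 43.7, 19.0, 18.1 and 19.6 CPM in 4T1 and 226, 234, 251 and 283 CPM in 67NR under CIX, with sample 4 the highest of 4T1. Ccnd1†, cyclin D1, had 920.3, 318, 271 and 379 CPM in 4T1 and 1846, 1818, 1840 and 1843 CPM in 67NR, again with sample 4 highest and a difference of -2.17 ± 0.29. Rbl1, the pocket protein p107, was called lower in 4T1 with vehicle alone, with a difference of -2.31, and its difference under CIX was -0.38 ± 0.13 (change 1.93 ± 0.18).

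**Figure D4:**
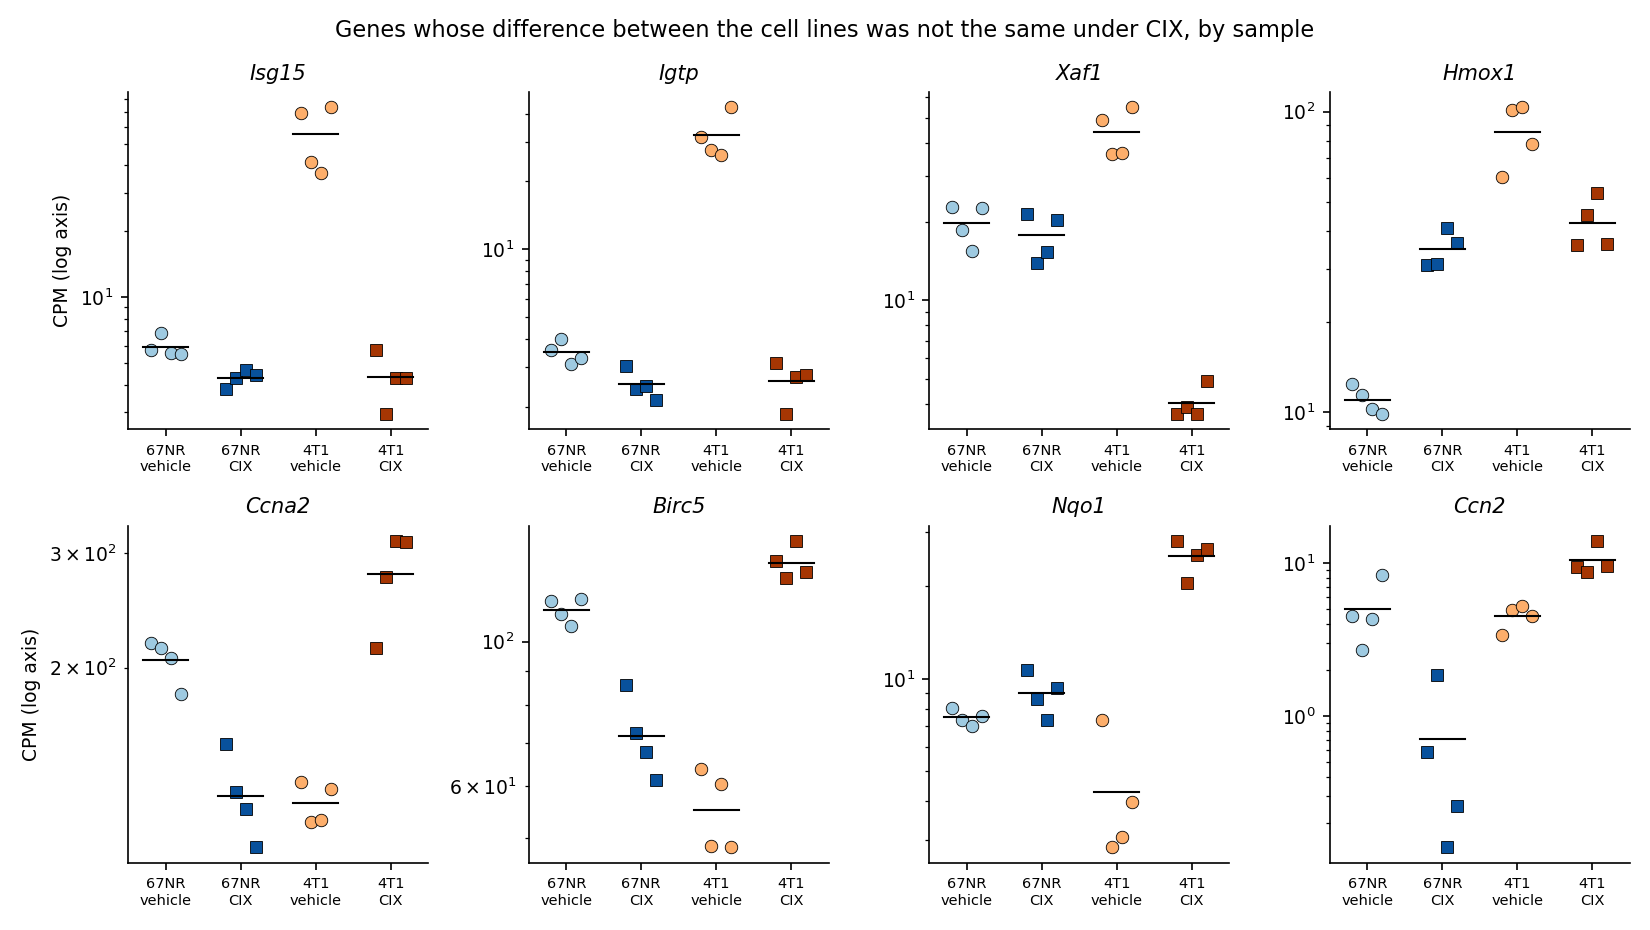
Levels of 8 genes whose line difference changed between vehicle and CIX (Isg15, Igtp, Xaf1, Hmox1, Ccna2, Birc5, Nqo1, Ccn2) in CPM on a log axis, each point a sample and each bar the mean of its 4 samples, for the 4 groups. Isg15 and Igtp separate the lines with vehicle and overlap under CIX, and for Ccna2 and Birc5 the higher line is 67NR with vehicle and 4T1 under CIX.

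Cholesterol synthesis genes, targets of the sterol-sensing factors SREBP, were called higher in 15 and lower in none of 35 genes in 4T1 with vehicle, and higher in 5 and lower in 7 under CIX (34.3% called, below the 41.1% over all genes). The change was called in 6 genes, all negative, beside 3.16% negative calls over all genes. These counts rested on single samples: 12 genes were called lower under CIX without 4T1 sample 4, and 4 without 4T1 sample 8 or 16 or 67NR sample 2 or 14. Called changes numbered 15 without 4T1 sample 4, 3 without 4T1 sample 8 or 16 or 67NR CIX sample 6 or 10 or vehicle sample 9, and 2 without 67NR CIX sample 2 or vehicle sample 5. Without 4T1 vehicle sample 7, 9 genes were called higher with vehicle.

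Pmvk, phosphomevalonate kinase, had 175, 119, 110.4 and 114 CPM in vehicle treated 4T1 and 42.6, 37.5, 36.3 and 45.8 CPM in vehicle treated 67NR. Under CIX it had 84.9, 66.7, 62.5 and 65.3 CPM in 4T1 and 70.2, 66.4, 60.0 and 61.2 CPM in 67NR, and the lines overlapped. Its difference went from 1.66 to 0.08 ± 0.11 (change -1.58 ± 0.20, limma-voom adjusted p = 4.97e-05). Mvd, mevalonate diphosphate decarboxylase, went from 1.38 to -0.35, and the desaturase Fads1 from 0.95 to 0.10. Msmo1, a sterol methyl oxidase, was called lower in 4T1 (-1.18 ± 0.17), as was the desaturase Scd1† (-0.63 ± 0.06). Sqle, squalene epoxidase, differed by -1.31 ± 0.20, a call that was lost without 4T1 sample 8 or 16. Scd2†, a second stearoyl desaturase, and Ebp, a sterol isomerase, were higher in 4T1 by 0.94 and 1.17.

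The chemokines, cytokines and colony-stimulating factors were called higher in 13 and lower in 6 of 33 genes in 4T1 under CIX (57.6% called, beside 41.1% over all genes), as compared to 18 and 6 with vehicle, and the change was called in 1 (8.01% over all genes). Of the 33 genes, 9 were expressed in 4T1 alone and 1 in 67NR alone at 1 TPM and had to differ. Cxcl16†, a chemokine of T cells, had 509, 401, 348 and 401 CPM in CIX treated 4T1 and 0.463, 0.248, 0.687 and 0.684 CPM in CIX treated 67NR, a difference of 9.66 ± 0.43 that was 9.51 with vehicle. The neutrophil chemokine Cxcl5 had 846, 628, 447 and 509.6 CPM in 4T1 and 28.1, 18.7, 23.4 and 20.9 CPM in 67NR, and Cxcl1, a relative, differed by 4.99 ± 0.51. Il1a†, an alarm cytokine, differed by 9.12 ± 0.64, and Il23a, a subunit of interleukin 23, by 7.92 ± 0.35. Vegfc, a lymphangiogenic factor, had no read in 67NR and was at least 68.0-fold higher in 4T1.

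Csf3, the granulocyte growth factor G-CSF, was called with vehicle (difference 12.48) and not under CIX (limma-voom adjusted p = 0.00211), although the lines did not overlap. Its level was 1498, 285, 187 and 353 CPM in CIX treated 4T1, with sample 4 far above the other 3, and at most 0.386 CPM in 67NR. Lcn2, an iron-binding protein of neutrophils and tumors, had 1048, 358, 136 and 292 CPM in 4T1 with sample 4 again the highest and at most 1.20 CPM in 67NR. Its call under CIX was lost without 4T1 sample 8 or 16 or any 67NR sample. On the 67NR side were Cxcl12, a chemokine of stromal cells, at least 150-fold lower in 4T1, and the alarmin Il33, with 1.34, 0.519, 0.696 and 0.689 CPM in 4T1 and 30.3, 31.4, 29.9 and 32.9 CPM in 67NR. The called change was that of Ccl7, a monocyte chemokine, which was lower in 4T1 with a difference of -2.44 under CIX and of -6.05 with vehicle.

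Matrix proteases and their inhibitors were called higher in 8 and lower in 7 of 30 genes under CIX, as compared to 11 and 6 with vehicle. The share called under CIX, 50%, stood beside 41.1% over all genes. Plau, the urokinase plasminogen activator, had 372, 255, 270.2 and 311 CPM in CIX treated 4T1 and at most 0.427 CPM in 67NR, and its difference was 11.90 ± 0.77. The protease inhibitors Serpine2 and Serpinb5 differed by 7.25 and 6.24. Adam8, a membrane protease, was not called with vehicle and was higher in 4T1 under CIX, with 66.8, 91.3, 79.0 and 103 CPM in 4T1 and 13.9, 16.0, 17.4 and 11.3 CPM in 67NR. Its difference was 2.52 under CIX and 0.40 with vehicle (change 2.11 ± 0.31, limma-voom adjusted p = 1.45e-04). Mmp9, a gelatinase, was called with vehicle (5.47) and not under CIX (3.46 ± 0.68, limma-voom adjusted p = 0.00131). Its 4T1 levels under CIX were 151, 37.4, 29.7 and 48.6 CPM, with sample 4 the highest. Timp2, a tissue inhibitor of metalloproteases, was lower in 4T1, with differences of -0.67 under CIX and -1.42 with vehicle (change 0.75 ± 0.10).

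Integrin subunits, the receptors of the matrix, were called higher in 9 and lower in 3 of 16 genes under CIX (75% called, beside 41.1% over all genes), as compared to 8 and 4 with vehicle, and 5 of the 16 were expressed in 4T1 alone at 1 TPM and had to differ. Itga2, a collagen receptor, was at least 390-fold higher in 4T1, and Itgb3, a subunit of the vitronectin receptor, differed by 7.91 ± 0.36. Itgb6, which pairs with integrin αv in epithelia, had 20.3, 24.7, 35.1 and 16.1 CPM in CIX treated 4T1 and no read in 67NR, and with vehicle its 4T1 levels were spread over 0.495, 0.515, 38.4 and 11.6 CPM. Itga7, a laminin receptor, and Itga5, the fibronectin receptor, were lower in 4T1, with differences of -2.62 and -1.45. The interval of the change lay within 1 for both (-0.79 to -0.02 and -0.30 to 0.34). Itgb1, the common β1 subunit, was not called (0.30 ± 0.08).

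Receptor tyrosine kinases and their ligands were divided between the lines, with 13 higher and 10 lower of 33 under CIX (69.7% called, beside 41.1% over all genes), as compared to 10 and 13 with vehicle. Egfr, the receptor of epidermal growth factor, and its ligand Tgfa were at least 92.3-fold and at least 436-fold higher in 4T1. Another ligand, Areg, differed by 7.57 ± 0.75, while the ligand Ereg was on the other side, with 53.2, 58.5, 60.6 and 64.5 CPM in 67NR and no read in 4T1. Fgfr1, a receptor of fibroblast growth factors, had 331, 305, 296 and 249.5 CPM in 67NR and 3.05, 1.08, 0.733 and 1.54 CPM in 4T1. The ligand Fgf10 was at least 509-fold lower in 4T1, and Fgf2† differed by -9.82 ± 0.53. Axl, a receptor kinase of mesenchymal cells, was lower in 4T1, with differences of -1.26 under CIX and -2.30 with vehicle. Its 4T1 level was 1085, 979, 919 and 891 CPM under CIX and 655, 452, 426 and 513 CPM with vehicle. The called changes were those of Axl and of the ligands Efnb1 (2.07 ± 0.27) and Efnb2 (1.52 ± 0.24) and the collagen receptor Ddr1 (1.10 ± 0.18), all positive, beside 4.85% positive calls over all genes. Of the 33 genes, 6 were expressed in 4T1 alone and 4 in 67NR alone at 1 TPM and had to differ.

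Of 25 TGF-β and BMP genes, 9 were called higher and 5 lower in 4T1 under CIX (56% called, beside 41.1% over all genes), as compared to 7 and 6 with vehicle. The ligand Bmp7 was at least 53.4-fold higher in 4T1, and the ligand Tgfb2 differed by 4.59 ± 0.51. Tgfbr3, the coreceptor betaglycan, narrowed from -3.33 with vehicle to -1.44 under CIX, with 46.6, 51.3, 45.9 and 45.4 CPM in CIX treated 4T1 and 14.4, 13.9, 11.4 and 17.5 CPM in vehicle treated 4T1. Id2, an inhibitor of helix-loop-helix factors, was lower in 4T1 (-2.66 ± 0.20). Ccn2†, connective tissue growth factor, did not differ past the threshold with vehicle (-0.05), where the lines overlapped. Under CIX it had 9.52, 8.78, 14.0 and 9.53 CPM in 4T1 and 0.579, 1.86, 0.137 and 0.256 CPM in 67NR, a difference of 4.41 ± 0.55 (change 4.45 ± 0.66, limma-voom adjusted p = 1.61e-04).

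The target of CIX did not separate the lines at the level of its mRNA. Pla2g4a (ENSMUSG00000056220, chromosome 1 from 149829618 to 149961290, GRCm38) had 119, 108, 191 and 138 CPM in CIX treated 4T1 and 108, 116, 177 and 125 CPM in CIX treated 67NR. The lines overlapped, with a difference of 0.06 ± 0.20 (limma-voom adjusted p = 0.797). With vehicle the values were 65.4, 92.7, 162 and 57.4 CPM in 4T1 and 60.2, 80.9, 76.5 and 326 CPM in 67NR, sample 13 being the high one in 67NR. Of 23 tested eicosanoid and phospholipase A2 genes, 7 were called higher and 6 lower in 4T1 under CIX (56.5% called, beside 41.1% over all genes), as compared to 7 and 8 with vehicle, and the change was called in 3, all positive, beside 4.85% positive calls over all genes.

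Ptgs2, the inducible cyclooxygenase 2 (ENSMUSG00000032487, chromosome 1 from 150100031 to 150108227, GRCm38), had 549, 638, 873 and 715 CPM in CIX treated 4T1 and 154, 204, 269.5 and 366 CPM in CIX treated 67NR. The lines did not overlap, and 4T1 was higher by 1.52 ± 0.24 (limma-voom adjusted p = 3.00e-04), a call that was lost without 4T1 sample 12 or 16 or 67NR sample 6. With vehicle the difference was 2.44, and the change of -0.93 ± 0.30 was not called (limma-voom adjusted p = 0.0286). The constitutive cyclooxygenase Ptgs1 was lower in 4T1, with 204, 202, 173 and 185 CPM in 4T1 and 498, 525, 469.7 and 532 CPM in 67NR, and narrowed from -2.28 to -1.43. Ptges, the prostaglandin E synthase, was lower in 4T1 (-3.13 ± 0.36), with sample 4 the highest of 4T1 at 32.2, 10.6, 6.12 and 9.69 CPM. Alox5ap†, the activating protein of 5-lipoxygenase, was lower as well (-5.79 ± 0.26). Lta4h, the hydrolase that makes leukotriene B4, was called with vehicle (-1.32) and overlapped under CIX. It had 104, 100.3, 108 and 127 CPM in 4T1 and 115, 103, 98.9 and 89.1 CPM in 67NR under CIX, and 44.6, 44.1, 43.9 and 44.2 CPM in vehicle treated 4T1 (change 1.41 ± 0.13, limma-voom adjusted p = 4.70e-06). The lipoprotein phospholipase Pla2g7† was higher in 4T1 by 7.94 ± 0.81, and the secreted Pla2g2e was at least 36.9-fold lower.

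Each of the 5 tested eicosanoid and lysophospholipid receptors was called, 2 higher and 3 lower in 4T1, with the same counts with vehicle and no called change. Over all genes 41.1% were called, and 2 of the 5 were expressed in 67NR alone and 1 in 4T1 alone at 1 TPM and had to differ. Ptger4†, a receptor of prostaglandin E2, had 1.91, 1.25, 1.32 and 1.38 CPM in 4T1 and 5.56, 6.64, 6.27 and 6.11 CPM in 67NR. Ptgir, the prostacyclin receptor, was at least 31-fold lower in 4T1. Of the receptors of lysophosphatidic acid, Lpar1 was lower (-2.31 ± 0.21) and Lpar2 higher in 4T1 (4.90 ± 0.25).

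Of 32 glycolysis and hypoxia genes, 16 were called higher, 2 lower and 14 in neither direction in 4T1 under CIX (56.2% called, beside 41.1% over all genes), as compared to 19 and 1 with vehicle. Aldoc, aldolase C, had 146, 131, 146 and 117 CPM in CIX treated 4T1 and 1.08, 1.24, 0.778 and 0.555 CPM in CIX treated 67NR. Eno2, an enolase, differed by 7.61 ± 0.65, Pfkp†, a phosphofructokinase, by 2.64 ± 0.09, and Car12, a carbonic anhydrase, was at least 498-fold higher. Of the glucose transporters, Slc2a1 was higher (0.77 ± 0.11) and Slc2a3 lower in 4T1 (-2.07 ± 0.17), as was the peptide Adm (-3.03 ± 0.25).

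Of 29 amino acid response genes under ATF4, 10 were called higher and 3 lower in 4T1 under CIX, as compared to 12 and 4 with vehicle, and the 44.8% called under CIX were near the share over all genes. Atf4 itself was not called (-0.52 ± 0.16). Its relative Atf3 was at least 201-fold higher in 4T1, and Atf5 was lower, with differences of -3.19 under CIX and -4.68 with vehicle. Aldh1l2†, a folate enzyme of mitochondria, was lower in 4T1 (-8.75 ± 0.73). Pck2, a mitochondrial carboxykinase, had 149, 156, 143 and 189 CPM in 4T1 and 64.2, 82.6, 92.7 and 86.0 CPM in 67NR under CIX and a called change of 1.40 ± 0.22.

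Among 31 NRF2, glutathione and antioxidant genes, 10 were called higher and 8 lower under CIX (58.1% called, beside 41.1% over all genes), as compared to 10 and 7 with vehicle. The 8 fell to 4 without 67NR sample 2, 6 or 10 or 4T1 sample 16 and to 5 without 67NR sample 14 or 4T1 sample 8 or 12. Hmox1, heme oxygenase 1, was higher in 4T1 with vehicle and overlapped under CIX, where 4T1 had 36.2, 45.2, 53.5 and 36.4 CPM and 67NR 30.9, 31.2, 41.0 and 36.5 CPM. Vehicle treated 4T1 had 60.6, 101, 103 and 78.0 CPM and vehicle treated 67NR 12.5, 11.4, 10.2 and 9.88 CPM, and the change was -2.67 ± 0.27 (limma-voom adjusted p = 8.21e-06). Nqo1, a quinone reductase and target of NRF2, changed in the opposite direction, with 28.1, 20.5, 25.2 and 26.3 CPM in 4T1 and 10.7, 8.58, 7.33 and 9.31 CPM in 67NR under CIX and a change of 2.34 ± 0.30. Sod3, the secreted superoxide dismutase, and Gstm1†, a glutathione transferase, were lower in 4T1, with differences of -7.16 and -2.70.

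Of 22 S100 and annexin genes, calcium-binding proteins, 9 were called higher and 7 lower in 4T1 under CIX (72.7% called, beside 41.1% over all genes), as compared to 4 and 7 with vehicle. S100a4†, known for its part in metastasis, was lower in 4T1, with 574, 351, 348 and 357 CPM in 4T1 and 3859, 3095, 2649 and 2387 CPM in 67NR, but 49.2% of its words are shared. S100a16 was lower (-4.91 ± 0.38), and Anxa8 and S100a8 were higher by 6.98 ± 0.61 and 3.21 ± 0.35. Of 17 mammary progenitor and stem cell markers, 6 were called higher and 6 lower (70.6% called, beside 41.1% over all genes), with the same counts with vehicle, and without 67NR sample 2 or 14 the higher ones were 3. Cd44, the hyaluronan receptor, was lower in 4T1 (-0.67 ± 0.09), as was Axin2, a target of Wnt signalling, by at least 31.5-fold. Esr1, the estrogen receptor, was higher by 2.42 ± 0.38, a call that was lost without 67NR sample 2, 10 or 14. Csn3, the milk protein κ-casein, turned from 1.12 with vehicle to -2.66 under CIX, with 30.7, 22.4, 21.3 and 27.1 CPM in vehicle treated and 1.10, 1.25, 2.71 and 1.99 CPM in CIX treated 4T1.

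**Figure D5:**
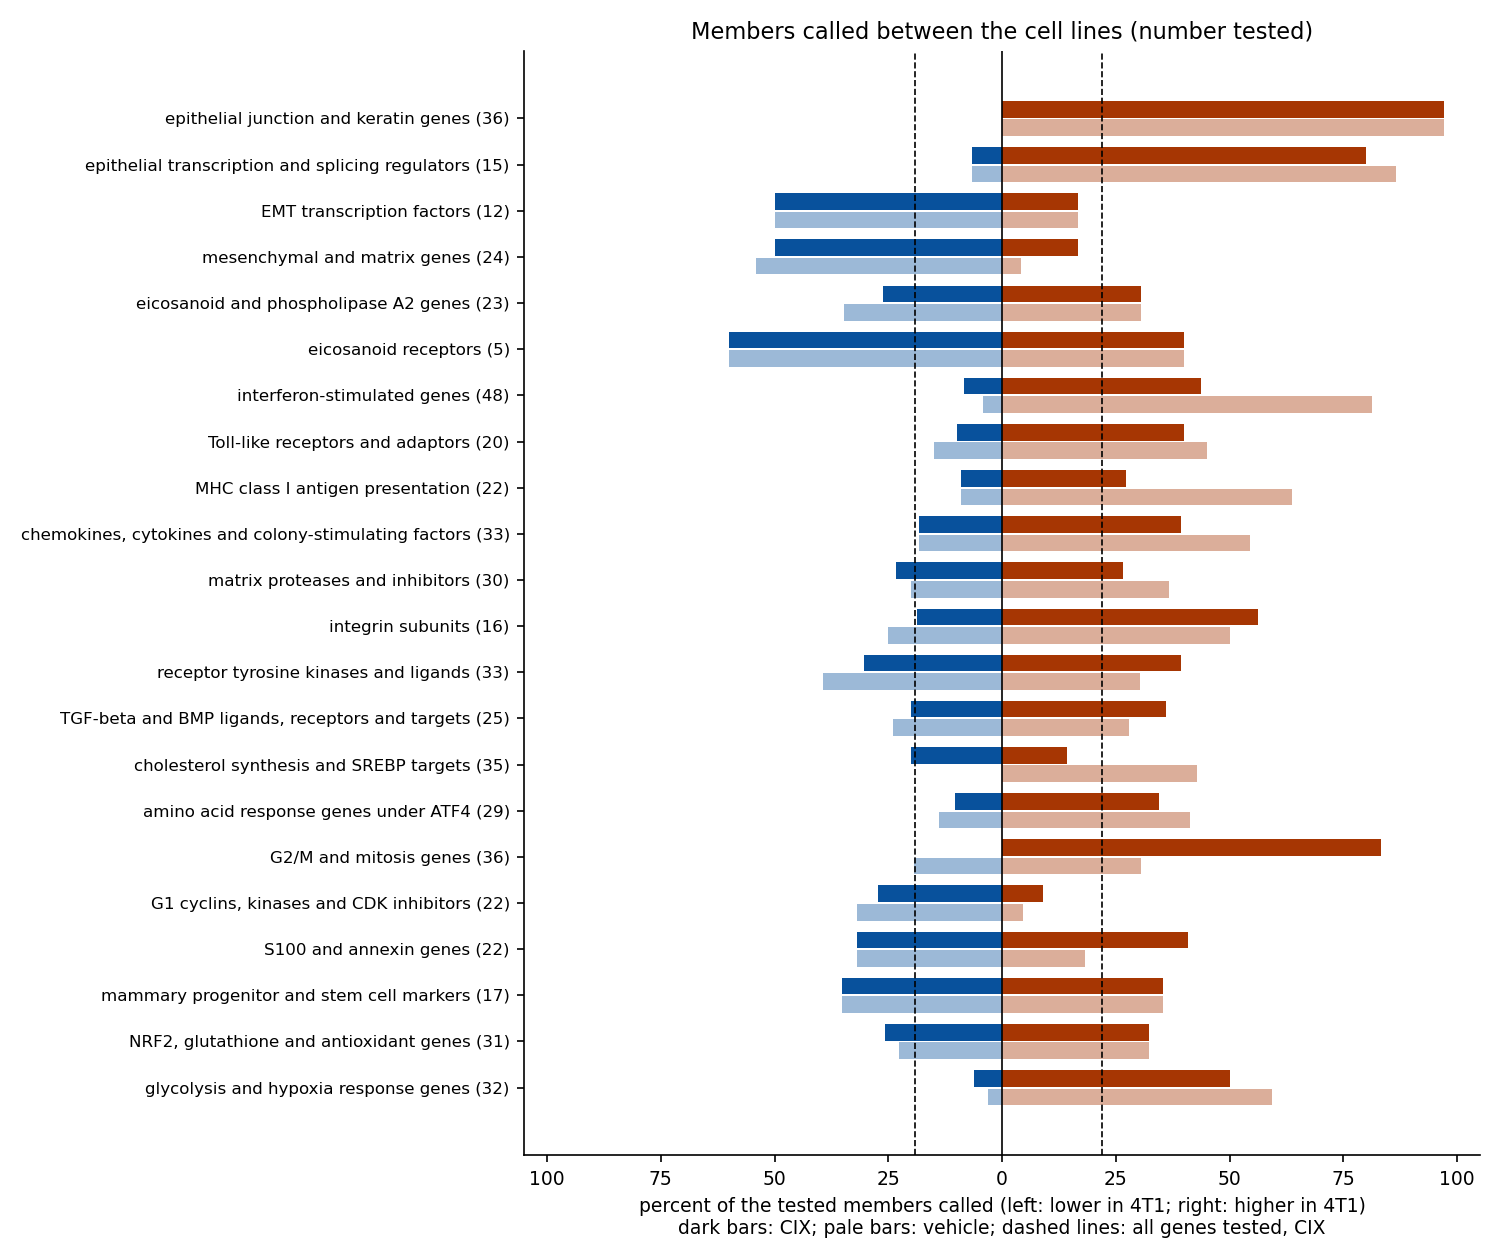
Percent of the tested members of each of the 22 gene lists called lower (left) and higher (right) in 4T1 as compared to 67NR, dark bars under CIX and pale bars with vehicle, with dashed lines at the percent over all genes under CIX (19.1% lower, 22.0% higher). The epithelial and G2/M lists reach furthest to the right under CIX, and the bars to the right of the interferon-stimulated and cholesterol lists are shorter under CIX than with vehicle.

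The 8 largest positive changes of the line difference were those of Ccn5, Ccn2, Dlk2, Sned1†, Ccl7, Card14†, Col7a1 and Mrnip†. Ccn5, a relative of Ccn2, had 3.42, 6.05, 1.98 and 2.07 CPM in CIX treated 4T1 and 0.695, 0.289, 0.412 and 0.513 CPM in CIX treated 67NR, and 0.948, 0.815, 0.648 and 0.481 and 3.41, 2.48, 2.13 and 3.17 CPM with vehicle, so that the higher line turned (change 4.57 ± 0.59). Card14, a scaffold of NF-κB signalling in keratinocytes, had 7.48, 5.96, 4.65 and 7.38 CPM in CIX treated 4T1, 1.04, 0.908, 1.15 and 0.855 CPM in CIX treated 67NR and a change of 3.56 ± 0.47. Col7a1, the collagen of anchoring fibrils, had 132, 268, 268 and 250.4 CPM in CIX treated 4T1 and 7.29, 7.92, 4.72 and 27.0 CPM in CIX treated 67NR, as compared to 46.5, 55.5, 62.4 and 106 CPM in vehicle treated 67NR. The changes of Dlk2 (3.76 ± 0.67), Sned1 (3.75 ± 0.66) and Mrnip (3.13 ± 0.29) were of genes at or below 35.3 CPM in every sample. Leaving out each of the 16 samples in turn cost the call of change 13 times for Sned1, 11 times for Dlk2 and 10 times each for Ccl7 and Col7a1.

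The 8 most negative changes were those of BC051019, Slc39a8, Psg22†, Disp2, Ifi209†, Gstt4, Bglap3† and Lrrc14b†. Slc39a8, a zinc and manganese importer, had 4.16, 3.95, 4.02 and 4.17 CPM in vehicle treated 4T1 and 0.0814, 0.130, 0 and 0.284 CPM in CIX treated 4T1, while 67NR had 4.72, 4.66, 4.25 and 3.89 CPM with vehicle and 7.25, 6.11, 7.28 and 6.58 CPM under CIX. The lines overlapped with vehicle and were apart under CIX (difference -6.20 ± 0.60, change -6.11 ± 0.54). BC051019 had 6.06, 6.74, 5.49 and 5.86 CPM in vehicle treated 4T1 and at most 2 counts in a CIX treated 4T1 sample (change -7.61 ± 0.84). Disp2 and Gstt4, a glutathione transferase, were lower in 4T1 under CIX, with differences of -5.70 and -5.86 and changes of -5.22 and -4.69. Bglap3, of the osteocalcin family, had 0.529, 0.735, 0.220 and 0.365 CPM in 4T1 and 6.17, 11.2, 7.10 and 10.4 CPM in 67NR under CIX. Ifi209, Psg22 and Lrrc14b share 47.2%, 33.8% and 99% of their words with other genes, and their changes of -4.82, -5.65 and -4.57 are uncertain. That of Psg22 was also lost in 9 of these 16 cases.

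In 27 genes the lines were called in opposite directions under the treatments, and the change was called in each of these. In 18 of them 4T1 was the lower line with vehicle and the higher one under CIX. Besides Ccn5, Ccna2, Kif2c and Birc5 these included, named here after their values were seen, the mitotic kinase Pbk, with differences of -0.78 and 1.85, and the DNA repair genes Fancd2 (-0.87 and 0.78) and Rad18 (-1.20 and 0.52). The CIX calls of Rad18 and Ccn5 were close to the threshold, with limma-voom adjusted p = 0.0009996 and 0.0009914. In the other 9, 4T1 was the higher line with vehicle and the lower one under CIX. These included Xaf1 and Csn3 and, also named after their values were seen, Apol9b (1.01 and -1.15), the potassium channel Kcnk2 (0.97 and -1.28) and the lectin Cd209c (2.53 and -1.96). Mean levels of Cd209c were 274.1 CPM in vehicle treated and 8.12 CPM in CIX treated 4T1, and 43.9 and 31.3 CPM in 67NR.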

How the data were processed

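RNA from 4T1 and 67NR cells was sequenced as single-end reads on 1 flow cell from stranded poly(A) libraries. The authors deposited estimated counts per gene, made with Salmon 0.12 and summarised by gene, for 33072 genes and 16 samples. The paper names the mouse genome GRCm38, while the build field of the labels names a human one. Only 0.0436% of the counts above 0 were whole, so the counts were rounded. Genes at 1 TPM or more in at least 4 of the 8 samples of a treatment were tested (12783; 20289 were not), with TPM computed from the counts and GENCODE M21 gene models, which matched 32911 genes. Whether the authors had scaled the counts by length is not given in the sources used here, and the TPM filter and the genes at 1 TPM in 1 line alone rest on counts taken as unscaled. The filter was adapted from that of the study so that genes of 1 line were kept.

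The lines were compared with limma-voom (limma 3.58.1, edgeR 4.0.16, R 4.3.3) with TMM scaling, in the 8 samples of each treatment, and the change between treatments as an interaction term in all 16 samples. It shares its samples with both comparisons. The threshold was an adjusted p of 0.001 (Benjamini-Hochberg). A test of 4 against 4 samples for a single gene cannot reach an exact permutation p below 0.0286, so p-values come from the fit over all genes. Floors of 3 counts per library cover counting error only.

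Members, gene lists and tests were chosen with earlier results of these data known. Named were 2 to 6 members of each list, Pla2g4a, Ptgs2, the 10 largest and 10 smallest differences of called protein-coding genes without overlap, the 8 most abundant called genes of each direction with a difference of at least 3, and the 8 largest and smallest changes. Of 210 named genes, not counting the marker Pdgfra, 60 had 5% or more shared words. Promoters are RefSeq entries (GRCm38.p6), present for 9419 of the tested genes. Alternatives were edgeR, DESeq2 1.42.0, other scalings, filters, weights, thresholds, log2 TPM and leaving out samples. Samples were grouped by their labels. Results of a few genes are not reported here.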

Additional observations from a re-analysis of the deposited data

Results flagged for a closer look

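In the CIX groups of the named genes, 33 of 380 groups of 4 samples (8.68%) held a sample whose gap to the nearest other sample exceeded Dixon's 95% critical value for 4 samples, as a share of the range of the group, where chance gives about 1 in 20. CIX treated 4T1 sample 4 was the high sample for Ccnd1 (920.3 CPM), Cd14 (26.7 CPM), Cdkn1a (43.7 CPM), Csf3 (1498 CPM), Mmp9 (151 CPM), Msmo1 (199 CPM), Mvd (115 CPM), S100a4 (574 CPM), S100a8 (3.21 CPM) and Twist2 (0.854 CPM) and was the low sample for Col7a1 (132 CPM). CIX treated 67NR sample 14 was the high sample for BC051019 (0.598 CPM), Cd24a (0.214 CPM), Col7a1 (27.0 CPM), Cxcl1 (21.1 CPM), H2-T23 (15.6 CPM), Plau (0.427 CPM) and Ptprf (0.427 CPM) and was the low sample for Axl (2067 CPM). CIX treated 67NR sample 2 was the high sample for C3 (4.48 CPM), Gas1 (125 CPM), Ifit3b (5.13 CPM), Msmo1 (349 CPM) and Twist2 (32.1 CPM) and was the low sample for Itga5 (183 CPM). CIX treated 67NR sample 10 was the high sample for Dlk2 (0.778 CPM), Pla2g7 (0.183 CPM), Tgfb2 (0.778 CPM) and Tgfbr3 (156 CPM). CIX treated 4T1 sample 12 was the high sample for Ccn2 (14.0 CPM) and Zeb2 (154 CPM). CIX treated 4T1 sample 16 was the low sample for Krt7 (1376 CPM). CIX treated 67NR sample 6 was the low sample for Lpar2 (0.743 CPM).

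The difference between the lines itself differed between CIX and vehicle in 67 of the named genes by the interaction term over all 16 samples (limma-voom, Benjamini-Hochberg adjusted p below 0.001). The 67 genes leave out Pdgfra and the genes named after their values were seen. The values are changes on the log2 scale, under CIX minus with vehicle. The change was positive, toward 4T1, for Ccn5 (4.57), Ccn2 (4.45), Dlk2 (3.76), Sned1 (3.75), Ccl7 (3.61), Card14 (3.56), Col7a1 (3.38), Mrnip (3.13), Nqo1 (2.34), Adam8 (2.11), Efnb1 (2.07) and Rbl1 (1.93). It was also positive for Tgfbr3 (1.89), Birc5 (1.89), Ccna2 (1.83), Bub1b (1.75), Itgb4 (1.71), Plk1 (1.71), Kif2c (1.64), Efnb2 (1.52), Atf5 (1.48), Lta4h (1.41), Pck2 (1.40) and Sparc (1.38). It was also positive for Ube2c (1.37), Irf3 (1.25), Ddr1 (1.10), Twist1 (1.05), Axl (1.03), Cdk1 (0.98), Ptgs1 (0.85), Timp2 (0.75) and Vim (0.67). The change was negative, toward 67NR, for BC051019 (-7.61), Slc39a8 (-6.11), Psg22 (-5.65), Disp2 (-5.22), Ifi209 (-4.82), Gstt4 (-4.69), Bglap3 (-4.65), Lrrc14b (-4.57), Il1rl1 (-4.03), Csn3 (-3.78), Xaf1 (-3.31) and Irgm2 (-3.25). It was also negative for Isg15 (-3.22), Igtp (-3.16), Gbp2 (-2.84), Hmox1 (-2.67), Tlr3 (-2.59), Irgm1 (-2.12), Mvd (-1.73), Pmvk (-1.58), Psmb10 (-1.58), H2-Q4 (-1.51), Trim25 (-1.51) and Tapbpl (-1.27). It was also negative for Sox4 (-1.24), H2-Q6 (-1.12), Bst2 (-1.10), Sox9 (-1.06), H2-K1 (-0.96), Tnfrsf22 (-0.91), Fads1 (-0.85), Ifitm3 (-0.81), Slc2a1 (-0.75) and Scd1 (-0.73). The causes of these changes were not tested.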

How the results depend on the processing

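The counts of called genes under CIX, with vehicle, called in the same direction under both, and with a called change of the difference stayed within 1.5 times of the reported ones under most settings, with these exceptions. At an adjusted p below 0.05 they were 8628, 9016, 6684 and 3788, and in the test against a fold of 1.5 they were 2717, 3245, 2097 and 118. The study's filter taken literally, which drops genes of 1 line, left 2555 genes called in the same direction under both. The change was called in 2030 genes with DESeq2 and in 1960 with sample quality weights. Leaving out 1 sample gave 4337 (without 4T1 sample 8) to 5589 (without 4T1 sample 4) genes under CIX, 4934 to 5832 with vehicle and 3443 to 4077 called in the same direction under both. The change was called in 673 genes without 4T1 vehicle sample 7 and in up to 1069 without 4T1 CIX sample 4. Of 6057 values of named genes under these settings, 5787 kept their side of the threshold, 219 lost and 51 gained a call. No value called in either fit changed direction, and changes of sign in values called in neither fit were not counted. The change of Slc2a1 was lost in 12 fits that left out a sample and that of Mvd in 6. The change of Scd1 was lost without 67NR CIX sample 2 or 10, 67NR vehicle sample 5 or 4T1 vehicle sample 15, that of Efnb2 without 67NR CIX sample 2 or 14 and that of Atf5 without 4T1 vehicle sample 7. The cause was not tested. The calls without both samples that stood apart were chosen after seeing the data, as were the vehicle counts. The labels give no replicate number shared between groups, but the sample numbers run in 4 sets with 1 sample of each group. With these sets as a replicate block, an alternative added after seeing the data, 4483 genes were called under CIX, 4504 with vehicle and 3089 in the same direction under both, and 1130 had a called change. The correlation of the deviations of same-set samples from the group means ran from -0.23 to 0.32 and was over 0.1 in 5 of 24 pairs, and the same set was the best match in 10. Between the CIX and vehicle treated 4T1 samples it was 0.32, 0.06, 0.27 and 0.12. Since not every pair was over 0.1, the sets were not taken as pairs in the main fits. This rule was chosen here and does not settle whether the samples of a set were paired. Depth limits the changes of genes near the floor in 1 line.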
